A study of Mus musculus with 12 samples.

Results

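YAP (Yap1) and TAZ (Wwtr1), the 4 TEAD transcription factors (Tead1 to Tead4) and the 4 Vestigial-like proteins (Vgll1 to Vgll4) were followed through 3 tagging screens in mouse embryonic stem cells. These 10 genes were chosen by name out of 20409 genes in the tables. The screens used ORFtag, a retroviral cassette that carries its own promoter and selection marker followed by a protein tag and a splice donor, so that a gene lying downstream of the insertion is expressed fused to that tag. In the activator screen the tag was the DNA-binding domain TetR, the reporter was a GFP gene with 7 TetO sites upstream of an inactive minimal promoter on chromosome 15, and cells with high GFP were sorted. In the repressor screen the same tag met an active GFP reporter with 7 TetO sites, also on chromosome 15, and cells with low GFP were sorted. The screen for regulators acting after transcription, called PTGR by the study, used the λN peptide as tag, which binds the 10 boxB sites of a randomly integrated GFP reporter mRNA. There, cells were sorted repeatedly for low GFP, the boxB sites were removed with Cre recombinase, and cells that regained GFP were sorted last. Each screen had 2 sorted and 2 unsorted libraries, so that 12 libraries were compared. Per the paper's methods, the activator and PTGR reporter lines were clonal, and the repressor line had been established previously. All were diploid embryonic stem cells derived from an originally haploid line and kept in one culture state. A tagged gene was driven by the cassette's promoter and not by its own.

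YAP and TAZ are transcriptional coactivators without a DNA-binding domain of their own, and they reach DNA by binding TEAD proteins. A TEAD protein holds its DNA-binding (TEA) domain near the N terminus and its YAP-binding domain in the C-terminal part. The kinases of the Hippo pathway phosphorylate YAP and TAZ and keep them in the cytoplasm, and the pathway is known for the control of organ size and, in the early embryo, of the choice between trophectoderm and inner cell mass. Vestigial-like proteins also bind TEAD proteins and lack a DNA-binding domain, and VGLL4 is known as a competitor of YAP for TEAD.

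A fusion starts at the splice acceptor of the first non-first exon downstream of the insertion, so the acceptor sets how much of the protein is tagged. The acceptors that took most of the sorted insertions are given here together with the exon 2 acceptor of Tead1, which led in unsorted cells. Each is 30 bases of the GRCm38 genome (the mm10 build) as given by RefSeq, read 5′ to 3′ on the gene's strand, with the last 14 intron bases in lower case and the first 16 exon bases, to which the tag is spliced, in capitals.
Yap1 exon 2 (chr9:8001692-8001721, minus strand): gctattcctgatagGCCAGTACTGATGCAG
Wwtr1 exon 2 (chr3:57575242-57575271, minus strand): cttttttcttgtagAAAGATGAATCCGTCC
Wwtr1 exon 3 (chr3:57501853-57501882, minus strand): tttccttcctttagTCACATAGAGAAAATC
Tead1 exon 2 (chr7:112759370-112759399, plus strand): gatttctcttttagGTTTGTTTTCTTGAAA
Tead1 exon 3 (chr7:112839402-112839431, plus strand): tttttttcttgcagGTAGAAATGAATTGAT
Tead1 exon 6 (chr7:112856039-112856068, plus strand): attattgtatccagGTAACAAGCATGGTAA
Tead2 exon 2 (chr7:45217199-45217228, plus strand): cttcatctctgcagGCCCAGATGGGGGATC
Tead4 exon 2 (chr6:128271107-128271136, minus strand): tttggctctaacagGTCCAACGGGCGCTCC
Tead4 exon 3 (chr6:128251971-128252000, minus strand): tggtgtttctacagGTCGGAATGAGCTGAT
Vgll4 exon 2 (chr6:114890791-114890820, minus strand): ttttctttgcatagGTGAAGCTTCCCTCAG
All 1637 insertions of the 10 genes in the 12 libraries led to an annotated exon start of GENCODE vM21.

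A position on one strand was counted as 1 insertion of a library, and only insertions within 200 kb of the exon were used. Sorted libraries held 14705 to 60980 insertions and unsorted libraries 54088 to 233799. Levels are given per 10000 insertions of the library, and the 6 unsorted libraries together are called the background. One unsorted library stood apart at these genes. Activator unsorted replicate 2 gave 49 of the 98 background insertions of Yap1, 53 of the 111 of Wwtr1 and 53 of the 138 of Tead4. Of these, 34, 36 and 25 lay at the same base as an insertion of activator sorted replicate 2. Over all genes, 19.2% of the insertions of activator sorted replicate 2 were also in activator unsorted replicate 2, against 5.17% between the libraries of replicate 1, and PTGR sorted replicate 1 held 19.5% in common with its unsorted library. The sorted repressor libraries shared 4186 positions, 18.8% of replicate 1 and 27.5% of replicate 2. The part of this sharing in the results was not tested beyond leaving out each library and using positions of 1 library only.

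Without selection, 9 of the 10 genes had sense insertions, which the paper takes as putative tagging. Fusion transcripts and proteins were not measured in these libraries. Tead4 had the highest background, 1.23 ± 0.74 insertions per 10000 (SD, n = 6), followed by Wwtr1 with 0.974 ± 0.79, Vgll3 with 0.964 ± 0.48, Yap1 with 0.942 ± 0.75, Tead2 with 0.708 ± 0.43, Tead1 with 0.646 ± 0.28 and Vgll4 with 0.630 ± 0.19. These neighbours in the order differed by less than their spread. Per 10000 insertions within 50 kb, a smaller total, the levels were 1.99 for Tead4, 1.14 for Tead2 and 0.904 for Vgll4, while Vgll3 came to 0.0884. These are the genes whose level moved beyond the spread. All background insertions of Tead4 and Tead2 lay within 50 kb, so their higher levels reflect the smaller total only. The background sums of these 7 genes ran from 62 to 138 insertions, against a median of 15 over all genes. Tead3 with 5 and Vgll2 with 7 had few background insertions, each in 4 of the 6 unsorted libraries. Vgll1 had no sense insertion in any of the 12 libraries, and 3 insertions in the opposite direction in the background. Its part in any screen could therefore not be measured. Vgll3 was reached from a long distance, and so in large part were Vgll2 and Tead1. In the background, 94.2% of the 103 insertions of Vgll3 lay over 50 kb from the exon, with a median of 178450 bp. The share was 85.7% at Vgll2, with 7 insertions, 61.2% at Tead1, 29.7% at Wwtr1 and 12.9% at Vgll4. It was 0% at Yap1, Tead2, Tead3 and Tead4.

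In the activator screen the 2 coactivators and 3 of the 4 TEAD genes were higher in sorted cells, and no Vestigial-like gene had enough sorted insertions for a test. A call needed a log2 odds ratio of 1 or more and, in a one-sided Fisher's exact test of the summed sorted libraries against the background, a Benjamini-Hochberg adjusted p below 0.001. Of the 10 genes, 6 had the 3 sorted insertions needed for a test and 5 were called, where 4.64% of the 2842 genes tested were called. The 5 genes together took 1.26% of all insertions in sorted replicate 1 and 4.50% in replicate 2, against 0.0296% to 0.0944% in the unsorted libraries. Among the 132 genes called they ranked between 10 and 60 by odds ratio and between 9 and 36 by the number of sorted insertions.

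Yap1 (chr9:7931999-8004596, minus strand), which encodes YAP, had 70 insertions in sorted replicate 1 and 189 in replicate 2, or 40.2 and 128.5 per 10000 insertions. In the unsorted libraries its level was 0.226 at the lowest, 0.722 at the median and 2.36 at the highest, so both sorted libraries lay far above all 6. The log2 odds ratio was 6.41 ± 0.17 (SE), and Fisher's exact test gave an adjusted p of 6.36e-303. Wwtr1 (chr3:57455649-57575910, minus strand), which encodes TAZ, had 69 and 171 sorted insertions, or 39.7 and 116.3 per 10000. Its unsorted levels were 0.370 at the lowest, 0.772 at the median and 2.55 at the highest. The log2 odds ratio was 6.12 ± 0.17, with a 95% counting interval of 5.79 to 6.44 that overlapped that of Yap1, 6.07 to 6.74. Without activator unsorted replicate 2 the log2 odds ratios of both coactivators were higher, 7.08 for Yap1 and 6.72 for Wwtr1. Against only the 2 unsorted libraries of the activator screen they were lower, 5.75 for Yap1 and 5.45 for Wwtr1.

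Of the TEAD genes, Tead4 (chr6:128224288-128300823, minus strand), whose product is known for its part in the trophectoderm, had 38 and 161 sorted insertions, or 21.8 and 109.5 per 10000. The unsorted levels of Tead4 ran from 0.370 over a median of 1.20 to 2.55. The log2 odds ratio of Tead4 was 5.53 ± 0.16. Tead1 (chr7:112679318-112906807, plus strand) had 24 and 80 sorted insertions, or 13.8 and 54.4 per 10000, above unsorted levels of 0.228 at the lowest, 0.681 at the median and 1.06 at the highest, with a log2 odds ratio of 5.63 ± 0.23. Tead2 (chr7:45215753-45233644, plus strand) had 19 and 61 sorted insertions, or 10.9 and 41.5 per 10000, above unsorted levels of 0.342, 0.541 and 1.48, with a log2 odds ratio of 5.36 ± 0.24. The 95% counting intervals of these 3 TEAD genes overlapped. Within 50 kb of the exon the log2 odds ratio of Tead1 was 6.75. Both sorted libraries lay above all 6 unsorted ones at each of the 5 called genes, as they did for 11.6% of all genes tested. All 5 were also called in each sorted replicate alone. In edgeR's quasi-likelihood test within the screen, 2 sorted libraries against 2 unsorted ones, which uses the spread between replicates, all 5 were called too, where 1.54% of genes were, with log2 fold changes of 5.13 (Tead4) to 5.84 (Yap1) and adjusted p-values from 6.91e-43 (Tead1) to 1.20e-15 (Yap1). DESeq2 also called the 5, where it called 10.4% of the genes to which it gave an adjusted p. On the same libraries its adjusted p-values were far larger, from 2.29e-07 (Tead2) to 1.32e-05 (Tead4). The size of the edgeR p-values therefore depends on the model and is no measure of how well the replicates of a gene matched.

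Tead3 gave no insertion in sorted replicate 1 and 4 in replicate 2, or 0 and 2.72 per 10000, against unsorted levels of 0 at the lowest, 0.0523 at the median and 0.185 at the highest. Replicate 1 of Tead3 thus lay at the lowest background level and replicate 2 above all of them. Its log2 odds ratio was 4.67 ± 0.97 and Fisher's exact test gave an adjusted p of 0.0020, which missed the threshold, although replicate 2 alone passed it. The 4 insertions led to exons 2, 4, 8 and 9, while the 5 background insertions all led to exon 2. In replicate 1 a count of 0 allowed up to 1.72 per 10000. The Vestigial-like genes gave almost no sorted activator insertions. Vgll4 and Vgll3 had 1 each in replicate 1 and 0 in replicate 2, against 62 and 103 in the much larger background. Vgll2 had none against 7. Per 10000 insertions, Vgll4 and Vgll3 each stood at 0.575 and 0 in the sorted replicates. Their background means were 0.630 and 0.964, so such low counts can arise at the background level. A loss below the background was not detectable for Vgll4 and Vgll3 (edgeR adjusted p = 0.770 and 0.566).

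**Figure D1:**
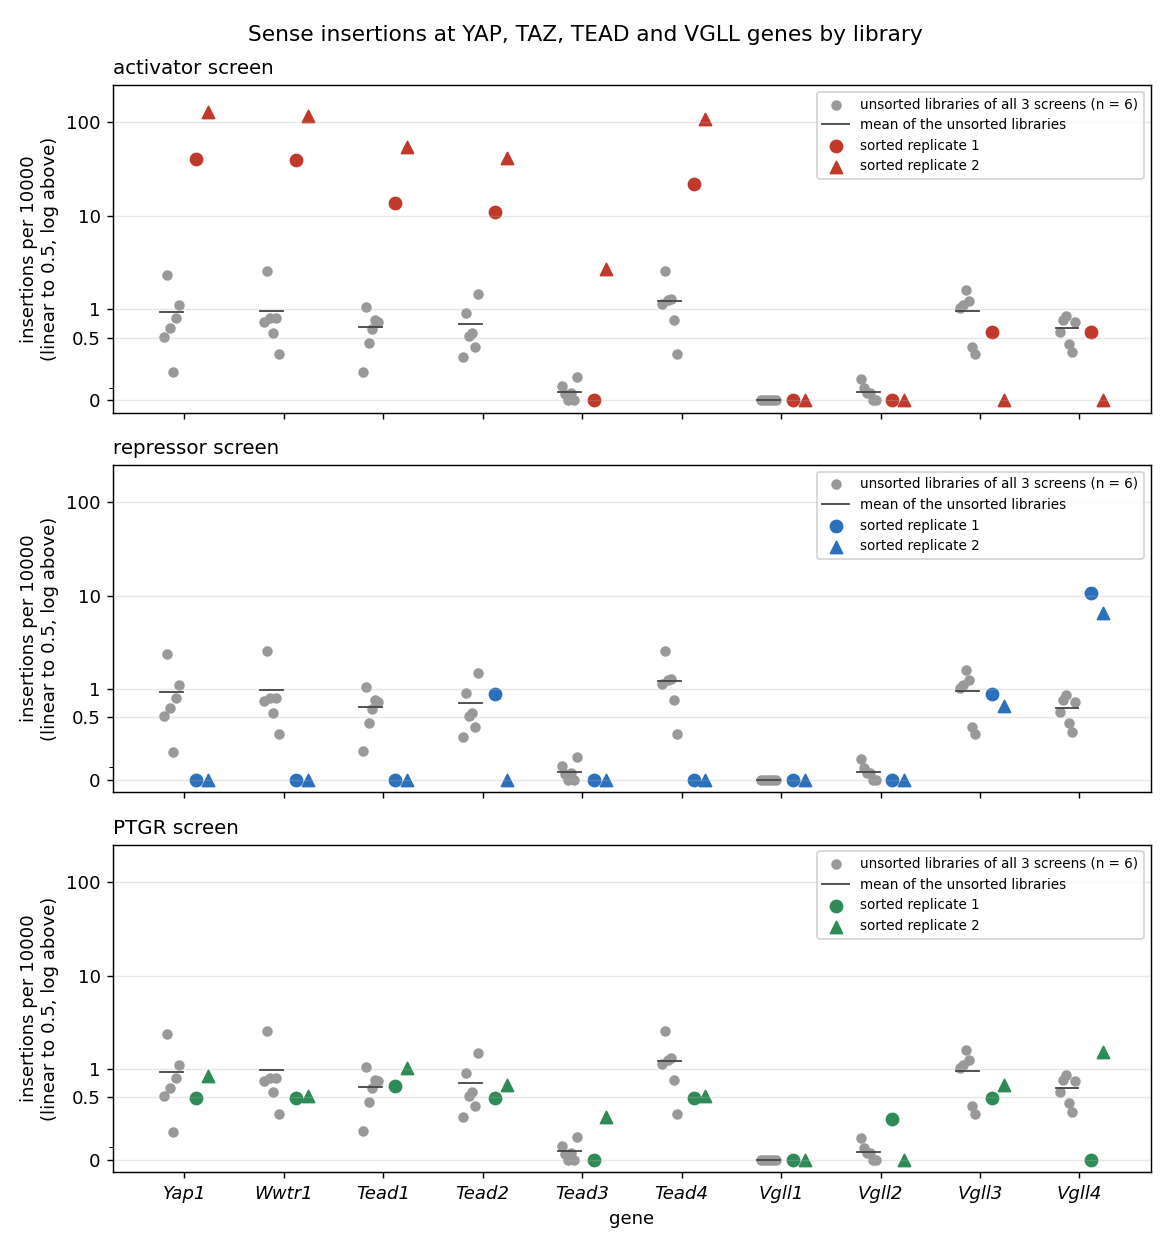
Sense insertions per 10000 insertions of the library (vertical axis, linear to 0.5 and logarithmic above) for each of the 10 genes (horizontal axis), with 1 panel per screen. Grey points are the 6 unsorted libraries with their mean as a line, and coloured circles and triangles are sorted replicates 1 and 2. In the activator panel Yap1, Wwtr1, Tead1, Tead2 and Tead4 lie between 10.9 and 128.5 in sorted cells, above all unsorted libraries, and in the repressor panel only Vgll4 does so, at 10.8 and 6.58.

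Sorted replicate 2 gave the higher level at each of the 5 genes. The log2 odds ratios in replicates 1 and 2 were 5.40 and 7.09 for Yap1, 5.20 and 6.76 for Wwtr1, 4.40 and 6.38 for Tead1, 4.17 and 6.10 for Tead2, and 4.02 and 6.36 for Tead4. At each gene the replicates differed by more than the counting error, so the summed value lay between unequal replicates and the size of the enrichment is known less well than its counting error says. Between the sorted replicates, 10 positions of Yap1, 6 of Wwtr1 and 1 of Tead2 were shared, and none of Tead1 or Tead4. Part of the sorted positions lay within 10 bp of another one. With such positions counted once, the sorted sum was 207 instead of 259 for Yap1, 197 instead of 240 for Wwtr1, 100 instead of 104 for Tead1, 61 instead of 80 for Tead2 and 164 instead of 199 for Tead4, and all 5 were still called.

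**Figure D2:**
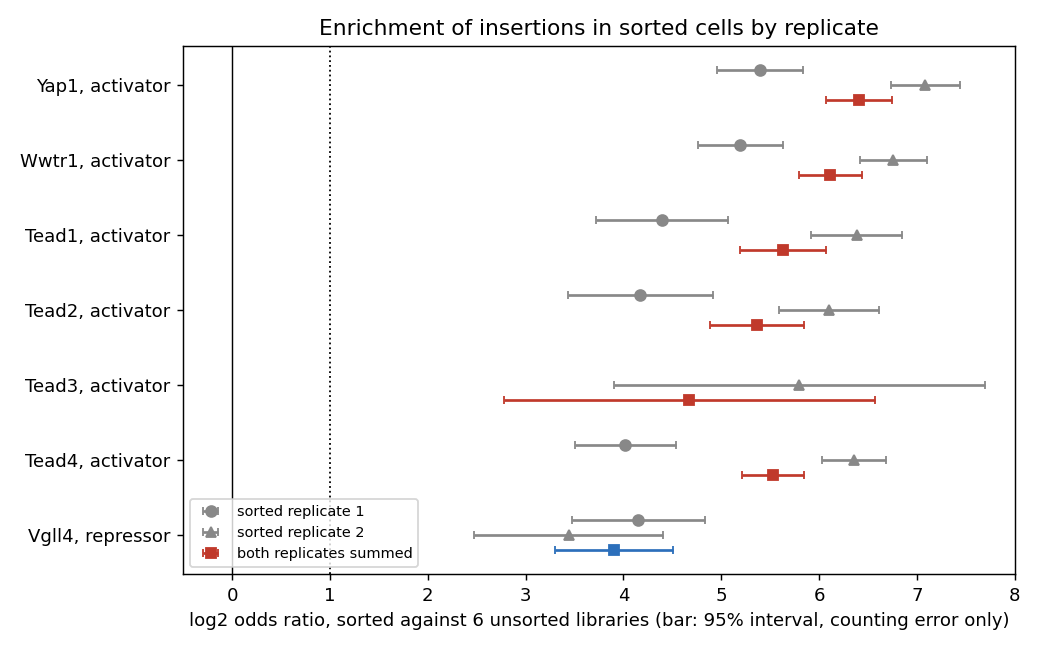
Log2 odds ratio of sorted against the 6 unsorted libraries (horizontal axis) for the genes named at the left with their screen. Circles and triangles are sorted replicates 1 and 2, squares both summed, and bars the 95% interval from counting error. Replicate 2 exceeds replicate 1 at Yap1, Wwtr1, Tead1, Tead2 and Tead4, while Vgll4 has 4.15 and 3.44 in the repressor screen.

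Only insertions in the direction of the gene can fuse the tag to it, so insertions in the opposite direction were counted beside them. Yap1 had 259 sense and 2 reversed insertions in the sorted activator cells, Wwtr1 240 and 0, Tead1 104 and 1, Tead2 80 and 1, and Tead4 199 and 1. The share in sense direction was therefore 98.8% to 100% in sorted cells. In the background it was 58.3% for Yap1, 65.3% for Wwtr1, 55.8% for Tead1, 55.9% for Tead2 and 61.9% for Tead4. The 5 genes were called for their sense insertions, and the sense share reuses these counts. It is therefore not independent of the call and is not taken as separate support for it. The test for enrichment of reversed insertions, which called 3.14%, 5.61% and 0.5% of the genes tested among activator, repressor and PTGR cells, could not be made for the called members in their own screens, since each had fewer than 3 reversed sorted insertions.

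**Figure D3:**
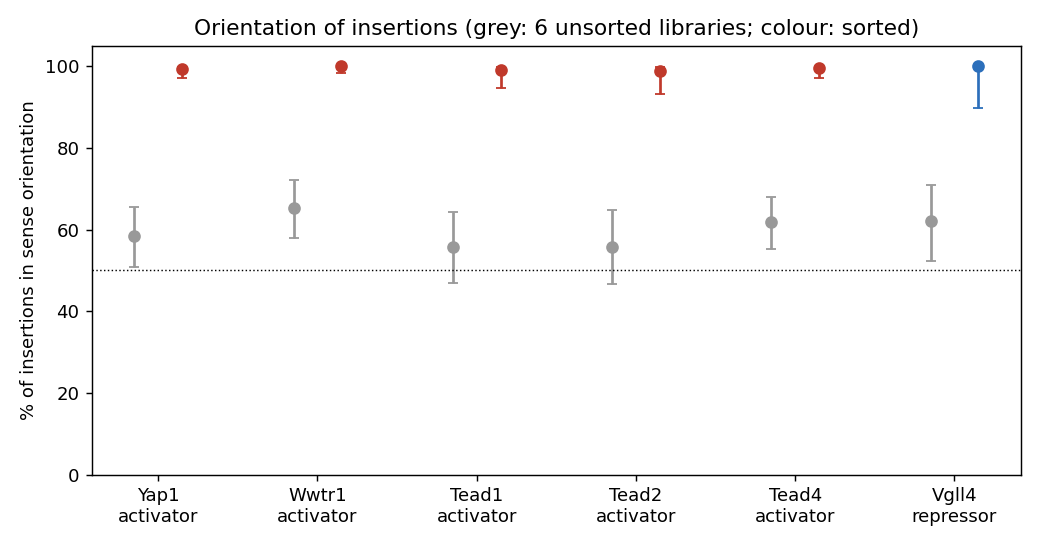
Share of a gene's insertions that lie in its own direction (vertical axis, %), in the background (grey) and in sorted cells of the screen named under the gene (colour), with 95% Wilson intervals. The background shares lie between 55.8% and 65.3%, and the sorted shares between 98.8% and 100%.

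The enriched insertions led to different acceptors in the 5 genes. For each gene the share of insertions leading to the exon most used in the background was compared between sorted cells and background (two-sided Fisher's exact test, at least 10 insertions in each, adjusted over all genes tested). In the activator screen 5 members could be tested and 2 passed an adjusted p of 0.05, Tead1 and Tead4, where 10.1% of the 355 genes tested passed.

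At Tead1, exon 2 took 41 of 67 background insertions (61.2%) and 1 of 104 sorted ones (0.962%), and Fisher's exact test gave an adjusted p of 2.83e-18. Exon 2 precedes the whole coding sequence, so a fusion there, if in frame, would hold all 436 codons of the longest annotated transcript. The exon 3 acceptor, which leaves out the first 53 codons and keeps 88.0% of the coding sequence, took 15 and 31 sorted insertions in replicates 1 and 2 against 13 in the background. The exon 6 acceptor, which leaves out 116 codons and keeps 73.4%, took 5 and 41 against 11, and the exon 4 acceptor, which leaves out 74, took 4 and 6 against 2. Exon 2 was used by 0 of 24 insertions in sorted replicate 1 and by 1 of 80 in replicate 2, so both replicates were near 0. Per 10000 insertions, Tead1 insertions leading to exon 2 stood at 0.312 in sorted cells and 0.401 in the background, a ratio of 0.777 with an exact 95% counting interval of 0.0192 to 4.58. For exon 3 the ratio was 112.7 with an interval of 59.8 to 227.3, and for exon 6 it was 133.1 with an interval of 67.9 to 285.1. Leaving out single libraries moved the ratio of exon 6 beyond its counting interval, while that of exon 3 stayed within its own. Without activator sorted replicate 2 the ratios were 67.8 for exon 3 and 26.7 for exon 6. Without activator unsorted replicate 2 they were 166.7 and 389.0. The sorted insertions lay at a median of 161624 bp from the annotated start of Tead1 and the background insertions at 13031 bp. Their median distance to the assigned exon was 9476 bp in sorted cells and 68475 bp in the background. Over 50 kb from the exon lay 4.81% and 61.2% of them. Exon use and distance thus changed together at Tead1, and their separate parts were not tested.

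Tead4 differed between its sorted replicates. Exon 2, which precedes all of its coding sequence, took 78 of 138 background insertions (56.5%) and 50 of 199 sorted ones (25.1%), and Fisher's exact test gave an adjusted p of 2.37e-07. In sorted replicate 1 the exon 2 share was 27 of 38 (71.1%) and in replicate 2 it was 23 of 161 (14.3%), which lie on either side of the background. Without replicate 2 the share was 14.5 percentage points above the background with an adjusted p of 0.495, so the call rests on that library. Exon 2 itself was reached equally in both, at 15.5 and 15.6 insertions per 10000. It was the exon 3 acceptor, which leaves out 69 codons and keeps 84.0%, that had 6.32 per 10000 in replicate 1 and 90.4 in replicate 2. Both acceptors of Tead4 were higher in sorted cells than in the background, with ratios of 20.4 for exon 2 (95% counting interval 14 to 29.5) and 80.4 for exon 3 (58.8 to 111.3). The ratio of exon 3 was 11.3 without activator sorted replicate 2, 162.2 without sorted replicate 1 and 152.2 without activator unsorted replicate 2, whereas that of exon 2 ran from 18.6 to 22.0 over the left-out libraries. With only the unsorted libraries of the activator screen as background, the adjusted p for Tead4 was 0.0549.

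Most insertions at Tead2 led to its first acceptor in sorted and unsorted cells. Exon 2, which precedes all 445 codons, took 46 of 62 background insertions (74.2%) and 68 of 80 sorted ones (85.0%), with 17 of 19 in replicate 1 and 51 of 61 in replicate 2. The difference of 10.8 percentage points did not pass (adjusted p = 0.641). Exons 9, 10, 11 and 12, whose acceptors keep 44.9%, 31.9%, 19.8% and 8.31% of the coding sequence, took 3, 5, 1 and 3 background insertions and none of the sorted ones. The test of exon 2 does not address these exons, and their difference was not tested. Of the sorted insertions of Tead2, 53.8% lay within 2 kb of the acceptor, where 48.4% of the background ones lay.

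Yap1 has no acceptor before its coding start. Its exon 2 acceptor leaves out 92 of 488 codons and keeps 81.1%, and it took 60 of 98 background insertions (61.2%) and 191 of 259 sorted ones (73.7%). The shares were 80.0% in sorted replicate 1 and 71.4% in replicate 2, and the difference from the background did not pass (adjusted p = 0.192). With only the unsorted libraries of the activator screen as background, the exon 2 share was 22.0 percentage points higher in sorted cells and passed (adjusted p = 0.0210 in Fisher's exact test). The exon 3 acceptor, which keeps 64.0%, took 6 and 30 sorted insertions against 18 in the background, and the exon 5 acceptor, which keeps 48.3%, took 4 and 14 against 11. All 3 acceptors of Yap1 were higher in sorted cells, with ratios of 101.4 for exon 2 (75.5 to 137.8), 63.7 for exon 3 (35.2 to 119.1) and 52.1 for exon 5 (23.3 to 122.1). Without activator sorted replicate 2 these ratios were 54.8, 19.6 and 21.4, without sorted replicate 1 they were 156.4, 115.8 and 88.5, and without activator unsorted replicate 2 they were 146.9, 152.2 and 76.1, so all 3 stayed above 1 but their order is not known. YAP is known to bind TEAD through its N-terminal part, and the exon 5 acceptor leaves out 253 codons. Where the TEAD-binding part lies relative to these acceptors was not determined, and the function of single fusions was not tested.

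Wwtr1 insertions were also enriched at several acceptors. Exon 2, which precedes the whole 395-codon reading frame of one annotated transcript and leaves out 56 codons of a 452-codon one, took 65 of 111 background insertions (58.6%) and 133 of 240 sorted ones (55.4%), a difference that did not pass (adjusted p = 1). In sorted replicate 1 it took 73.9% and in replicate 2 48.0%, on either side of the background. The exon 3 acceptor, which keeps 63.6% of the shorter reading frame, took 10 and 76 sorted insertions against 41. The exon 5 acceptor, which keeps 35.2% of it, took 8 and 8 against 5. The ratios of sorted to background were 65.1 for exon 2 (48.1 to 89.1), 66.8 for exon 3 (45.5 to 99.4) and 101.9 for exon 5 (35.7 to 355.6). Without activator sorted replicate 2 these ratios were 46.1, 14.3 and 94.0, without sorted replicate 1 they were 87.7, 128.8 and 111.2, and without activator unsorted replicate 2 they were 93.7, 109.1 and 203.0, so the acceptors of Wwtr1 could not be put in order.

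**Figure D4:**
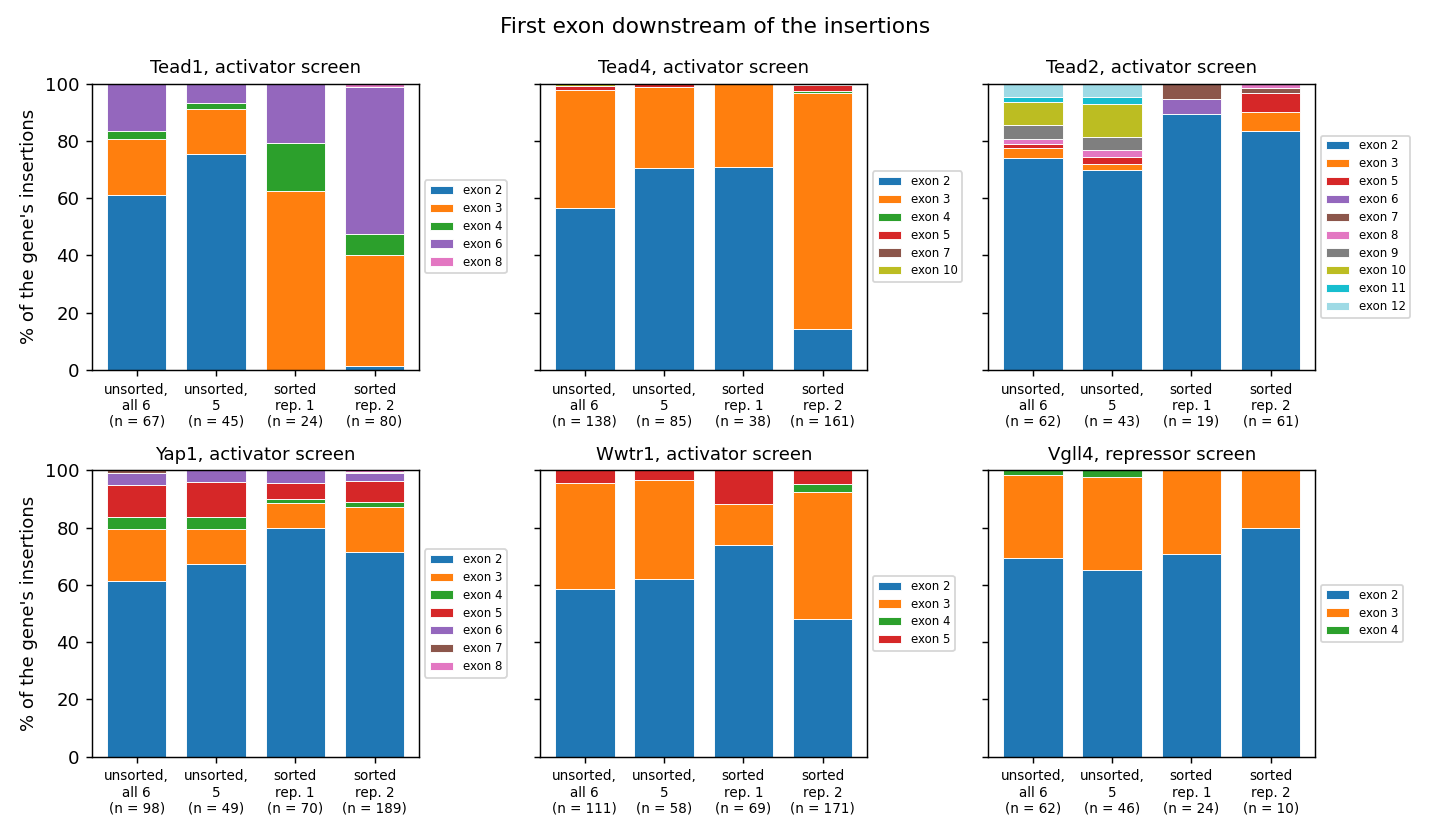
Share of a gene's insertions (vertical axis, %) by the first exon downstream, for the 6 unsorted libraries, the 5 without activator unsorted replicate 2, and sorted replicates 1 and 2, with the number of insertions under each bar. Exon 2 of Tead1 falls from 61.2% in unsorted cells to 0% and 1.25% in sorted cells, while Tead4 has 71.1% and 14.3% and Tead2 has 89.5% and 83.6%.

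**Figure D5:**
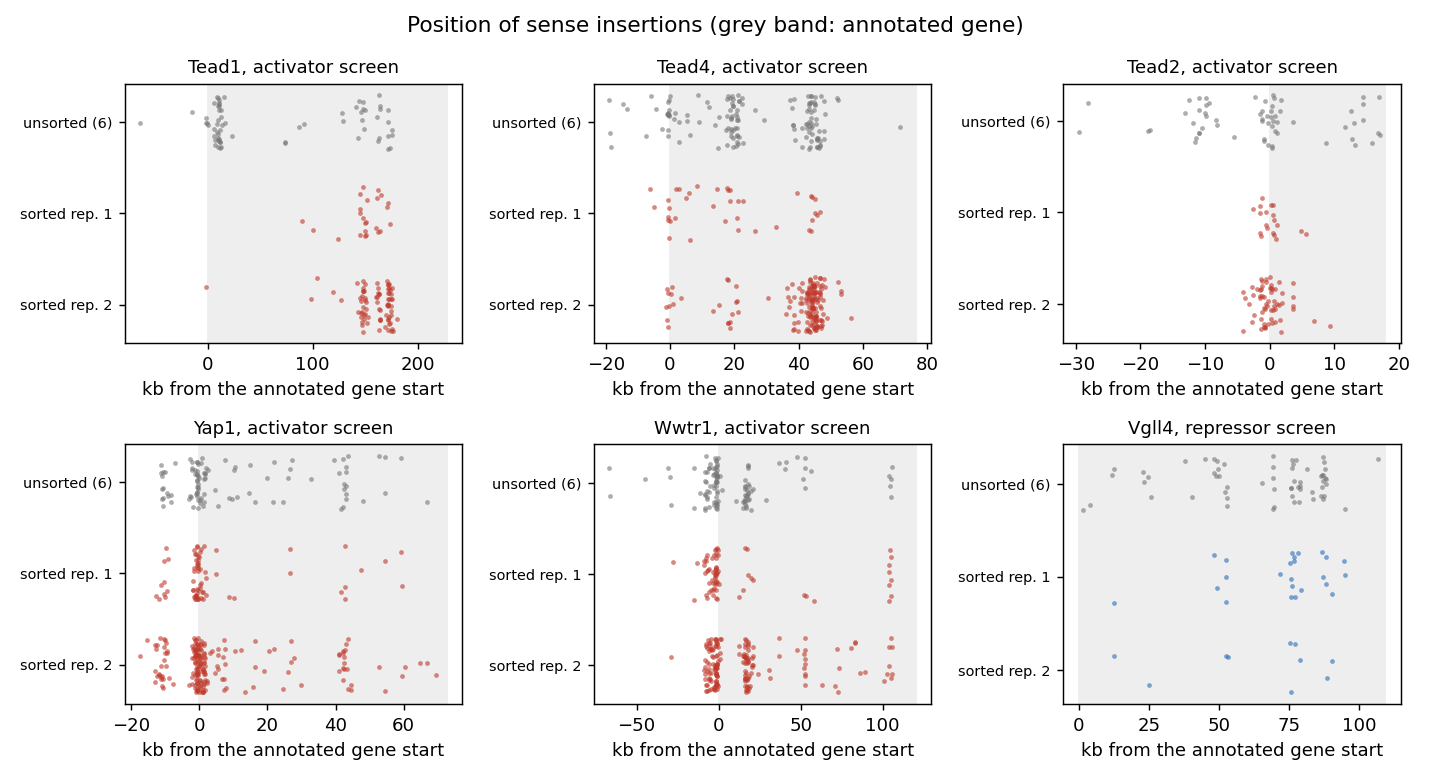
Position of each sense insertion relative to the annotated gene start (horizontal axis, kb), for the 6 unsorted libraries and sorted replicates 1 and 2, with vertical scatter for visibility and the annotated gene in grey. Background insertions of Tead1 gather near its start, at a median of 13031 bp, and sorted ones far inside the gene, at a median of 161624 bp.

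In the repressor screen Vgll4 was the one member that was higher in sorted cells. Of the 10 genes, 2 could be tested and 1 was called, where 8.18% of the 2346 genes tested were called. Vgll4 (chr6:114860628-114969994, minus strand) had 24 and 10 sorted insertions, or 10.8 and 6.58 per 10000, against 0.385 at the lowest, 0.655 at the median and 0.861 at the highest of the unsorted libraries. Both sorted libraries lay above all 6 unsorted ones, as they did for 16.6% of the genes tested. The log2 odds ratio was 3.90 ± 0.31, where Fisher's exact test gave an adjusted p of 1.28e-23, and it was 4.15 ± 0.35 in replicate 1 and 3.44 ± 0.49 in replicate 2, each called alone. In edgeR's quasi-likelihood test the log2 fold change was 4.07 and the adjusted p 3.31e-17, where edgeR called 2.58% of genes, and DESeq2, which called 5.95%, called Vgll4 as well. Without a filter on low counts edgeR did not call Vgll4 (adjusted p = 0.200). Of the sorted Vgll4 positions, 4 were in both replicates, and with only positions found in 1 library the log2 odds ratio was 3.86. All 34 sorted Vgll4 insertions lay in sense direction, against 62.0% in the background. Exon 2, which leaves out 28 of 287 codons, took 25 of the 34 (73.5%) and 43 of 62 background insertions (69.4%), and exon 3, which keeps 68.4%, took 9 and 18. The difference in exon use of Vgll4 did not pass (adjusted p = 1), where 16.3% of genes tested in that screen passed.

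The genes called in the activator screen were nearly absent from the sorted repressor cells. Yap1, Wwtr1, Tead1 and Tead4 had 0 insertions in both sorted repressor libraries, which allowed up to 0.801 per 10000 over the pair. Tead2 had 2 and 0. For each of these 4 genes, both sorted libraries lay below all 6 unsorted ones, but so did 29.0% of all genes with a background insertion. The edgeR adjusted p-values of this depletion were 0.191 for Tead4 and 0.402 to 0.450 for the other three, so a loss below the unsorted level was not detectable at this depth, although 1 of them, Tead4, had an unadjusted p below 0.05. Vgll3 had 2 and 1 sorted insertions, with a log2 odds ratio of -0.33 ± 0.85, and Tead3, Vgll1 and Vgll2 had none.

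The PTGR screen called none of the 10 genes, of which 7 could be tested, where 0.666% of the 9303 genes tested were called. None had an unadjusted p below 0.05 in Fisher's exact test or in edgeR, and edgeR and DESeq2, which called 0.342% and 0.948% of genes, also called none. Among the 7 genes tested, log2 odds ratios ran from -1.43 ± 0.60 for Tead4 and -1.11 ± 0.60 for Wwtr1 to 0.35 ± 0.49 for Tead1. The 95% interval of Tead4, -2.61 to -0.25, lay below 0, a direction that the one-sided test does not address. Against the unsorted libraries of the PTGR screen alone the log2 odds ratio of Tead4 was -0.47, and the edgeR log2 fold change was -0.33. Yap1 had 3 and 5 insertions (0.492 and 0.854 per 10000) and a log2 odds ratio of -0.52 with a 95% interval of -1.56 to 0.52. Vgll4 had 0 and 9, and the 9 positions of replicate 2 came down to 4 when those within 10 bp were counted once. Tead2 and Vgll3 each had 3 and 4 insertions, and Vgll1 had none. Tead3 had 0 and 2 and Vgll2 had 2 and 0, too few for a test. Their log2 odds ratios were 1.77 ± 1.21 and 1.29 ± 1.16. Tead1 was the one member with enough insertions for a test of exon use, at 40.0% for exon 2 in sorted cells against 61.2% in the background (adjusted p = 1), where 0.614% of genes passed. The cells of this screen carried the λN tag and met an RNA reporter, and the number of insertions behind each member, at most 10 over both sorted libraries, sets the width of these intervals.

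Differences between the screens were tested directly, in 1 edgeR quasi-likelihood model over all 12 libraries that compared sorted against unsorted cells between screens. Between the activator and repressor screens 6 members passed an adjusted p of 0.05. Of these, 5 were higher in the activator screen, where 0.57% of the 12809 genes were, with edgeR adjusted p-values of 2.50e-08 for Yap1, 2.95e-11 for Wwtr1, 1.01e-08 for Tead1, 1.61e-05 for Tead2 and 1.07e-15 for Tead4. For the 4 genes without a sorted repressor insertion the level in sorted activator cells was at least 100.8-fold (Yap1), 93.4-fold (Wwtr1), 77.4-fold (Tead4) and 40.5-fold (Tead1) higher than the 3 counts a pooled 0 allows. With any 1 of the 4 sorted libraries left out, the lowest of these bounds were 40.9-fold for Yap1 and 37.9-fold for Wwtr1, both without repressor sorted replicate 1, and 27.3-fold for Tead4 and 16.4-fold for Tead1, without activator sorted replicate 2 and repressor sorted replicate 1. Tead2, with insertions on both sides, differed by 4.99 on the log2 scale, and its adjusted p was 0.0508 without activator sorted replicate 2. Vgll4 went the other way by -5.15 on the log2 scale (adjusted p = 0.000406 in edgeR), as 0.882% of genes did, with 1 sorted activator insertion against 34 sorted repressor ones, and DESeq2 gave an adjusted p of 0.143 for it. Between the activator and PTGR screens the same 5 members were higher in the activator screen, where 0.586% of genes were, with differences of 5.16 (Tead2) to 5.94 (Yap1) on the log2 scale. Without PTGR unsorted replicate 1, Wwtr1 and Tead4 did not pass that comparison, with adjusted p-values of 0.308 and 0.379. Between the repressor and PTGR screens only Vgll4 passed, higher in the repressor screen as 0.929% of genes were, by 3.10 on the log2 scale with an adjusted p of 0.0237. This last difference was lost without any of repressor sorted replicate 1 (adjusted p = 0.474), repressor unsorted replicate 2 (0.146), PTGR sorted replicate 1 (0.319), PTGR unsorted replicate 1 (0.135) or PTGR unsorted replicate 2 (0.0876). It was also lost in DESeq2 (0.164) and within 50 kb of the exon (0.0576).

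A list of 22 other genes of the Hippo pathway, among them the upstream kinases, their scaffold proteins and inhibitors, had 4 genes with enough sorted insertions among sorted activator cells, 7 among sorted repressor cells and 17 among sorted PTGR cells, and 0 were called in each. With 4.64%, 8.18% and 0.666% of all tested genes called, these numbers are too small to set the list apart from other genes. By Fisher's exact test 0, 0 and 1 of them had an unadjusted p below 0.05, in edgeR 0, 3 and 0 of them did, the 3 being lower in sorted cells, and edgeR and DESeq2 also called none. The median log2 odds ratio of the list was -0.32, -0.06 and 0.01, beside -0.14, -0.39 and 0.14 over all genes tested.

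The profile over the 12 libraries was compared among 3766 genes with at least 10 insertions in the sorted cells of a screen, as Pearson's r of log2 insertions per 10000 after adding 0.5 to each count. The 3 genes most like Yap1 were Foxj2 (r = 0.977), Wwtr1 (0.976) and Aff1 (0.975). Those most like Wwtr1 were Aff1 (0.993), Foxj2 (0.986) and Tead4 (0.986), and those most like Tead4 were Wwtr1, Aff1 (0.982) and Batf2 (0.974). Tead1 was most like Yap1 (0.969), Foxj2 (0.968) and Aff1 (0.965). Tead2 was most like Fbxl19 (0.967), Foxj3 (0.951) and Foxo6 (0.948), and the nearest member, Tead1, came at rank 13 (0.934). Vgll4 was most like Arid4b (0.954), Mllt6 (0.932) and Yeats2 (0.921), with r of -0.38 to -0.15 to the 5 genes called in the activator screen. The 12 points share the sorted libraries in which these genes are high, so the values describe that pattern only.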

How the data were processed

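ORFtag insertions were mapped by the study with inverse PCR and sequencing. The authors trimmed reads with Trim Galore 0.6.0, aligned them with Bowtie2 to mm10, used SAMtools 1.9 to remove duplicates, and gave every insertion the closest exon downstream other than a first exon, per the paper's methods. The deposited lists hold positions, exon numbers and distances in bp (other units, no reads per insertion). The counts per gene deposited by the authors, with their odds ratios and p-values, were used only for gene names. Here unique positions within 200 kb were counted for 20409 genes. Sorted sums were compared with 6 unsorted libraries by Fisher's exact test (scipy 1.17.1), and replicates and screens by edgeR 4.0.16 (at least 10 insertions, TMM) and DESeq2 1.42.0, with Benjamini-Hochberg adjustment over all genes tested. Odds ratios are given with counting errors, intervals at 95%, and a count of 0 allows 3. Fisher's exact tests and edgeR were run on simulated counts with little or no spread between replicates. That check does not cover replicates as unequal as those found here. Acceptors were placed with GENCODE vM21 (GRCm38), and codons left out include a codon cut by the junction of the longest coding transcript. All 10 genes are named, with the called genes of the 22-gene list and the 3 most similar genes. The genes, the list and the tests were chosen with earlier results of these data known. Per the methods, the unsorted cells were a portion of the transduced pool that was sorted, and same-numbered sorted and unsorted libraries were taken as pairs in the activator and PTGR screens, where their replicate differences correlated (r = 0.41 across 340 genes and 0.25 across 3529), but not in the repressor screen (0.03 across 310). The edgeR values given are without the replicate block. Replicates are separate transductions, and PCR copies or divided cells are not independent events, so intervals cover counting error only.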

Additional observations from a re-analysis of the deposited data

Results flagged for a closer look

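Wwtr1 stood out in 1 unsorted library. Activator unsorted replicate 2 held 2.55 Wwtr1 insertions per 10000, while the other 5 unsorted libraries lay between 0.370 and 0.813. The gap took up 0.797 of the whole range, above the limit of Dixon's test, which chance passes in about 1 of 20 such groups. Of its 53 Wwtr1 insertions, 36 lay at positions that activator sorted replicate 2 also held. The same library was the highest for Yap1 (2.36), Tead1 (1.06) and Tead4 (2.55), where the gap stayed within the limit of Dixon's test. Dixon's test was run on each member with background insertions, without adjustment for their number, and only Wwtr1 passed the limit.

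The sorted-against-unsorted difference of 6 members was unequal between screens in the edgeR model over 12 libraries. Between activator and repressor screens the adjusted p was 2.50e-08 for Yap1, 2.95e-11 for Wwtr1, 1.01e-08 for Tead1, 1.61e-05 for Tead2, 1.07e-15 for Tead4 and 0.000406 for Vgll4. Between activator and PTGR screens the edgeR adjusted p was 6.17e-16 for Yap1, 8.19e-13 for Wwtr1, 5.91e-11 for Tead1, 1.21e-08 for Tead2 and 1.37e-10 for Tead4. Between repressor and PTGR screens it was 0.0237 for Vgll4 in edgeR.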

How the results depend on the processing

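The 5 members called in the activator screen were called under every alternative run, with log2 values from 4.02 for Tead4 to 7.09 for Yap1. Leaving out any 1 library gave 5 or 6 calls there. In the repressor screen the count was 0 instead of 1 only in edgeR without a filter on low counts, where the adjusted p of Vgll4 exceeded 0.05. Without activator sorted replicate 2, exon use changed at 1 member instead of 2, Tead1, and over the left-out libraries the count was 1 to 2. The exon 2 share of sorted minus background cells then turned in sign, and over the left-out libraries it ran from -45.5 to 14.5 percentage points for Tead4 and from -10.6 to 15.4 for Wwtr1. The cause was not tested. Differences between screens numbered 12 and lay between 9 and 12, with 9 without PTGR unsorted replicate 1 and 10 in DESeq2.

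Among uncalled values, signs turned at Vgll3 in the repressor screen (1.9 within 50 kb) and in the PTGR screen at Yap1 (0.38 with positions of 1 library, -0.96 to 0.15 over left-out libraries), Tead2 (0.078 with every line counted, 0.22 with positions of 1 library, -0.30 to 0.17 over left-out libraries), Vgll3 (0.49 with its own background, 0.50 within 50 kb, 0.54 and 0.51 in edgeR without and with the replicate block, 0.61 in DESeq2, 0.37 without a filter) and Vgll4 (-0.83 with positions within 10 bp counted once). The number of insertions limits these values.

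With the replicate block, edgeR called the same number of members in the 3 screens, 5, 1 and 0, and 12 differences between screens, so the pairing changed none of these counts. The adjusted p-values did change. In the activator screen that of Yap1 went from 1.20e-15 to 2.11e-52 with the block, and that of Tead2 from 2.27e-42 to 2.24e-30. They were smaller with the block at Yap1, Wwtr1 and Tead4 and larger at Tead1 and Tead2. Leaving out libraries for the ratios at single acceptors and for the bounds against the repressor screen was chosen after seeing the data. Background levels within 50 kb moved beyond the spread at Tead2, Tead4, Vgll3 and Vgll4.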
